A study of Mus musculus with 9 samples.

Results

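Imprinted genes were followed in 9 RNA-seq libraries of a mouse spermatogonial stem cell line. The 10 genes described were H19, Igf2, Dlk1, Meg3, Peg3, Peg10, Mest, Snrpn, Plagl1 and Grb10, out of 46078 genes with counts. They were picked by name from the known imprinted genes, with earlier results of these data known. H19 was picked because it had been seen to be lower after co-culture, so the values of H19 are given as a description with no test. EGFP-SSCs, a wild-type line whose cells carry enhanced green fluorescent protein, were grown at 0 h on mouse embryonic fibroblasts that had been treated with mitomycin C, in serum-poor medium with GDNF, basic fibroblast growth factor and epidermal growth factor, β-estradiol and progesterone. For the 24 h and 48 h groups the line was mixed in equal parts with somatic cells from the testes of 3-7 day old mice that had received busulfan, which depletes germ cells. The medium then held KSR, BMP-4/7, retinoic acid, activin A, testosterone, FSH and BPE. EGFP-positive cells were sorted from the co-cultures by flow cytometry, and whether the 0 h cells were sorted in the same way is not in the labels. Poly-A RNA of 3 libraries per group, labelled as biological replicates of 1 line, was sequenced. Against 0 h, the later groups differ in time, partner cells and medium together, and these cannot be told apart. The labels do not say that the replicates came from separate thaws or derivations, so p-values measure the spread between these libraries.

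An imprinted gene is transcribed mainly from 1 of its parental copies, because a mark of DNA methylation set in the egg or the sperm is kept at a control region near the gene. In the male germ line the marks inherited from both parents are erased in the embryo and reset to the paternal state before birth, and spermatogonia carry that state. Many imprinted genes act on growth and sit in clusters, in which a paternally expressed coding gene often lies beside a maternally expressed non-coding RNA. The counts described here do not separate the parental copies, so a level is the sum of both.

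H19, a maternally expressed non-coding RNA that carries the microRNA miR-675, lies on chr7:142575529-142578143 (GRCm38, minus strand, ENSMUSG00000000031). Igf2, the paternally expressed growth factor that shares enhancers and a control region with H19, lies on chr7:142650766-142666816 (minus strand, ENSMUSG00000048583), and the annotated 5′ ends of this pair are 88.673 kb apart. Dlk1, a paternally expressed transmembrane relative of the Notch ligands, lies on chr12:109452823-109463336 (plus strand, ENSMUSG00000040856). Meg3, a maternally expressed non-coding RNA, lies on chr12:109541001-109571726 (plus strand, ENSMUSG00000021268), and the annotated 5′ ends of Dlk1 and Meg3 are 88.178 kb apart. Mest (chr6:30723547-30748465) and Peg10 (chr6:4747306-4760517) share a chromosome, as do Peg3 (chr7:6703892-6730431) and Snrpn (chr7:59982495-60140219). Plagl1 (chr10:13060504-13131694) and Grb10 (chr11:11930508-12038683) each lie alone among the 10.

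Promoter sequence is shown for Igf2, Dlk1 and Meg3, whose clusters hold pairs of the 10 genes, and for Mest, which had the largest fall. Each is the 250 bases before a transcription start of RefSeq (GRCm38.p6), the one with the most CpG sites where there are several, read 5′ to 3′ on the strand of the gene. RefSeq entries matched 8 of the 10 genes, and H19 and Peg10 had none. Capitals mark matches to TGCCGC, the core bound by the imprint keeper ZFP57, to the cAMP response element TGACGTCA and to the TATA box TATAAA, searched on both strands after the sequences had been read. The windows are chr7:142658805-142659054 for Igf2, chr12:109452573-109452822 for Dlk1, chr12:109540746-109540995 for Meg3 and chr6:30737800-30738049 for Mest.
Igf2: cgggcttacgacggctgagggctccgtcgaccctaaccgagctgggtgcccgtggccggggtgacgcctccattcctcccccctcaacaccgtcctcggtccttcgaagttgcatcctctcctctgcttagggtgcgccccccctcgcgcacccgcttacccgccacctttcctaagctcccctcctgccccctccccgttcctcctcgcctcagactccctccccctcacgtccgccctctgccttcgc
Dlk1: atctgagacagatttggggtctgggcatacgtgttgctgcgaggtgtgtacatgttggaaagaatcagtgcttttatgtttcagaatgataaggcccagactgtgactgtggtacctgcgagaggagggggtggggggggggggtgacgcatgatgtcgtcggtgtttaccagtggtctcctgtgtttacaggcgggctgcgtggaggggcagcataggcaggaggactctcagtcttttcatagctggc
Meg3: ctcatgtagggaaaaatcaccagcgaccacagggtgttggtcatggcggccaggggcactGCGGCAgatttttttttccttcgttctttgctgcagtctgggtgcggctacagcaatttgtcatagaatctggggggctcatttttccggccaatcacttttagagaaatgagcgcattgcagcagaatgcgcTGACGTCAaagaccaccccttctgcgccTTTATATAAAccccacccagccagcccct
Mest: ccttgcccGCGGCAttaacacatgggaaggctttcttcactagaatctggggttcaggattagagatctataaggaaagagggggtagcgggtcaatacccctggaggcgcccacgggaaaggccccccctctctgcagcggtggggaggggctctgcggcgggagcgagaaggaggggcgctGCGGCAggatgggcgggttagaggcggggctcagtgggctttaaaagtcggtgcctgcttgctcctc
The window of Meg3 held 1 match to TGCCGC, 1 cAMP response element 57 bases before the start, and a pair of overlapping TATA matches 29 and 25 bases before it. Mest held 2 matches to TGCCGC, and the windows of Igf2 and Dlk1 held no match to any of the 3 motifs. Over all 32536 promoter windows of this length, 8.75% held TGCCGC, 1.56% held the cAMP response element and 12.3% held TATAAA. The 4 windows held 22, 8, 10 and 14 CpG sites in the order shown, against a median of 6 over all windows. That median is over windows not chosen for their CpG sites, so the 2 are not alike. Other windows of Igf2 held 1, 10 and 6 CpG sites, that of Meg3 held 0, and those of Mest held 7 and 14. The windows of Snrpn held 2 to 4. Of the windows not shown, the one for Grb10 with the most CpG sites held 40, more than 98.7% of all windows. Plagl1 held 1 TGCCGC, Peg3 held 1 cAMP response element, and 1 of 4 windows of Snrpn held TATAAA. A match describes letters only.

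The total count per library ran from 16825251 to 22201892, and the lowest count of any of the 10 genes in any library was 99. Replicates of a group never agreed within sampling noise: chi-square over its degrees of freedom was 7.78 to 90.9 for the 9 pairs and highest for the 3 pairs at 0 h. The 0 h replicates 1 and 3 had the lowest rank correlation of any replicate pair, 0.961 over genes. Summed markers of germ cells (Ddx4, Dazl, Mael, Tdrd1, Dnd1 and Sall4) were at 1460 to 2536 CPM (counts scaled to a common library size) at 0 h, 1822 to 2063 at 24 h and 1852 to 2083 at 48 h, so the labelled cell type was present in each library, and 0 h replicate 3 was the lowest.

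The level of the 10 genes is given in CPM normalized with TMM, which corrects for library composition, and as mean ± SD of 3 libraries. To compare levels between genes, CPM was divided by the summed exon length in kb, giving FPKM. At 0 h, H19 was the highest of the 10 at 96.6 ± 25.9 FPKM (SD, n = 3), followed by Igf2 at 17.3 ± 1.83 FPKM. Mest (9.42 FPKM), Dlk1 (8.67) and Peg10 (8.44) came next, and neighbours among these 3 overlapped between libraries. Grb10 (4.72 FPKM) and Snrpn (4.28) followed without overlap, and Plagl1 (3.50), Peg3 (3.01) and Meg3 (1.35) ended the order, each overlapping with its neighbour. This order depends on the length used: per length of the longest transcript, Grb10 was at 8.47 FPKM beside Peg10 at 8.44, and Snrpn at 4.45 was below Plagl1 at 5.20 and Peg3 at 4.61. At 48 h, H19 was at 30.9 FPKM, Dlk1 had become the second at 21.8 and Grb10 the third at 10.0, with no overlap between neighbours among these 3, and Igf2 was at 4.88 beside Peg10 at 4.91, which it overlapped. Mest had gone from the third place to the ninth, at 1.71 FPKM, where it overlapped with Plagl1 (1.99) and Meg3 (1.57).

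**Figure D1:**
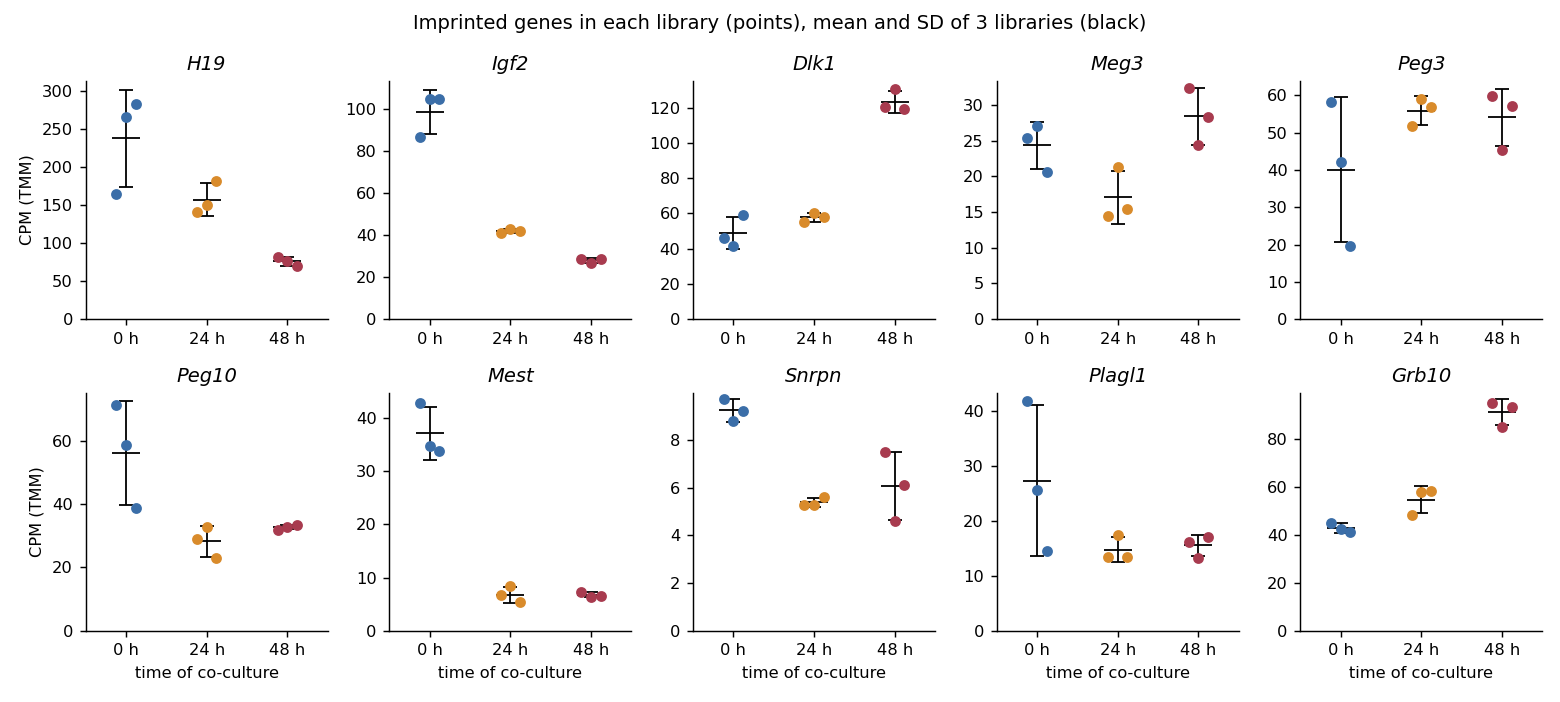
Level of each of the 10 imprinted genes in CPM (y axes from 0) in each library (points) at 0 h, 24 h and 48 h (x axes), with the mean and SD of 3 libraries in black. Igf2 and Mest are lower at both later times, Dlk1 and Grb10 are highest at 48 h, and the 0 h libraries of Peg3, Peg10 and Plagl1 lie far apart.

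Changes were tested with the quasi-likelihood test of edgeR over all genes, 2 groups at a time, and a gene was called at a Benjamini-Hochberg adjusted p of up to 0.05. The 3 comparisons share groups of libraries and are not independent of each other. The 9 genes other than H19 were chosen with earlier results of these data known, so their shares describe these genes alone. Leaving H19 out, 4 of the 9 other genes fell and none rose from 0 h to 24 h, where 25.5% of the 17592 genes tested were called, 11.4% higher and 14.2% lower. From 0 h to 48 h, 2 of the 9 rose and 3 fell, where 31.6% of 17755 genes were called, 13% higher and 18.5% lower. From 24 h to 48 h, 3 of the 9 rose and 1 fell, where 21.3% of 17499 genes were called, 8.61% higher and 12.7% lower. The median log2 fold change of the 9 was -0.76, -0.61 and 0.16 in these comparisons, and that of all genes tested lay within 0.02 of 0. Libraries of the 2 groups did not overlap for 5 of the 9 genes between 24 h and 0 h, where this held for 43.4% of all genes (21.2% higher and 22.2% lower). They did not overlap for 6 of the 9 between 48 h and 0 h, against 48.3% of all genes (22.9% higher and 25.4% lower), and for 4 of the 9 between 48 h and 24 h, against 39.6% (18.6% higher and 21% lower).

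**Figure D2:**
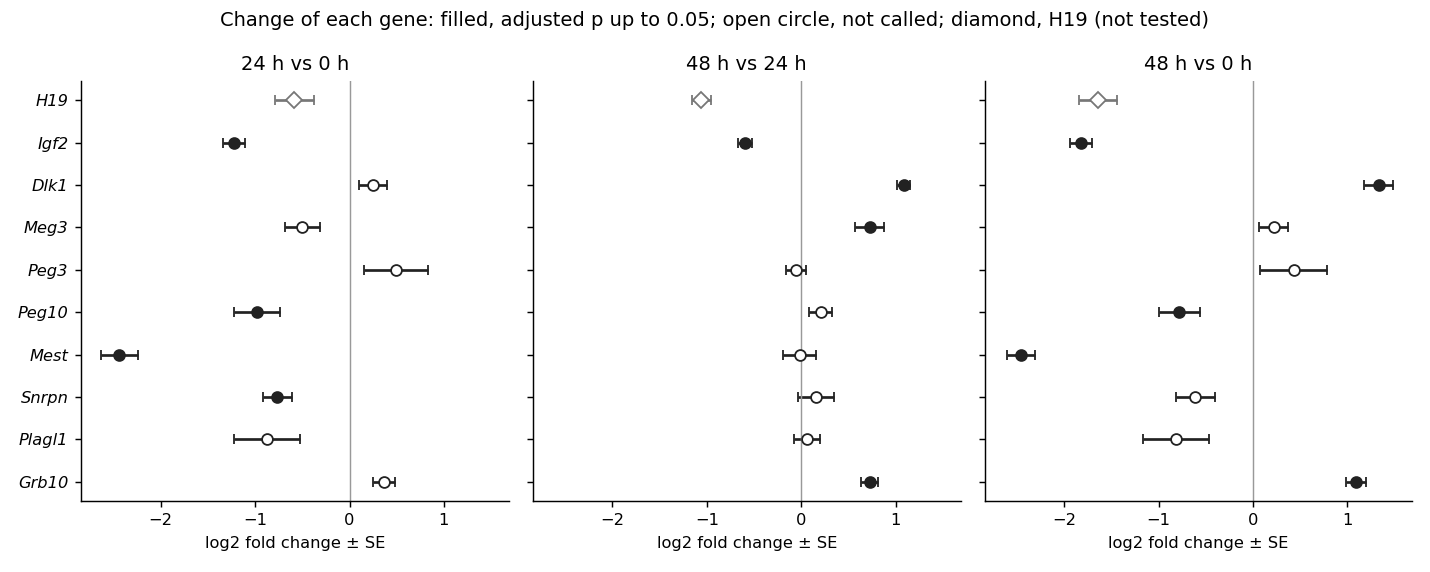
Log2 fold change with its SE from edgeR (x axes) of each of the 10 genes (y axis) in the comparisons of 24 h with 0 h, 48 h with 24 h and 48 h with 0 h. Filled circles were called at an adjusted p of up to 0.05, open circles were not, and the diamond of H19 was not tested. Igf2 lies below 0 in each panel, and Mest lies at -2.44 and -2.46 against 0 h and near 0 between 24 h and 48 h.

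In the H19 and Igf2 pair, both genes were at their lowest at 48 h. H19 was at 165, 265 and 283 CPM in the 3 libraries at 0 h, at 140, 150 and 181 CPM at 24 h, and at 81.4, 76.3 and 70.2 CPM at 48 h. The means were 238 ± 63.7, 157 ± 21.4 and 76.0 ± 5.58 CPM (SD, n = 3). The libraries at 0 h and 24 h overlapped, while each library at 48 h was below all of the others. H19 at 48 h was 3.13-fold lower than at 0 h and 2.07-fold lower than at 24 h.

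Igf2 was at 86.7, 105 and 105 CPM at 0 h, at 40.9, 43.0 and 42.0 CPM at 24 h, and at 28.8, 26.5 and 28.5 CPM at 48 h. No libraries overlapped between any of the 3 groups. Igf2 fell by 1.22 ± 0.12 (SE) on the log2 scale by 24 h (edgeR, adjusted p = 0.00033) and by 1.82 ± 0.12 by 48 h (edgeR, adjusted p = 5.6e-05). The fall from 24 h to 48 h was smaller, at -0.60 ± 0.07 on the log2 scale, and also passed the test (edgeR, adjusted p = 0.000822). In the annotation 62.8% of the exon bases of Igf2 are shared with Gm49394, a gene model of the same strand that was not among the genes with counts.

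Set against each other within a library, H19 was 4.42, 5.88 and 6.29 times as high as Igf2 in FPKM at 0 h, 7.98, 8.11 and 10.0 times at 24 h, and 6.58, 6.69 and 5.74 times at 48 h. The ratio was highest at 24 h, where its libraries overlapped with neither of the other groups, and the ratios at 0 h and 48 h overlapped. Thus by 24 h the level of Igf2 was 2.35-fold lower while the mean of H19 was 1.51-fold lower. No test was run on this ratio, since it contains H19.

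The genes whose log2 CPM followed that of H19 most closely over the 9 libraries, among 10967 genes whose mean reached 10 CPM at 1 or more times, were Slc16a3 (Pearson's r = 0.998), Mpnd (0.989), Cited2 (0.988), Espn (0.984) and Poc1a (0.983). The 9 points fall into 3 groups of time, so these values describe group levels as well as libraries. Slc16a3, which codes for a lactate transporter, had means of 121, 72.8 and 28.3 CPM at 0 h, 24 h and 48 h. Cited2, a co-regulator of transcription, had means of 52.5, 45.3 and 35.9 CPM. Igf2, the neighbour of H19, stood at place 546 of this ranking with r = 0.906, and Grb10 stood near the other end with r = -0.93.

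In the Dlk1 and Meg3 pair, both genes were higher at 48 h than at 24 h. Dlk1 was at 46.2, 41.8 and 59.2 CPM at 0 h, at 55.2, 60.4 and 57.7 CPM at 24 h, and at 121, 131 and 119 CPM at 48 h. The 0 h and 24 h libraries overlapped, and the 48 h libraries lay above all others. Dlk1 differed by 0.25 ± 0.15 on the log2 scale between 24 h and 0 h (edgeR, adjusted p = 0.281), which did not pass the test, but was called without 0 h replicate 3 (log2 0.43, edgeR, adjusted p = 0.0199) and was at 0.13 without 0 h replicate 2. It rose 2.14-fold from 24 h to 48 h (log2 1.08 ± 0.07, edgeR, adjusted p = 6.6e-05) and 2.52-fold from 0 h to 48 h (log2 1.33 ± 0.15, edgeR, adjusted p = 0.000681).

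Meg3 was at 25.4, 27.0 and 20.6 CPM at 0 h, at 14.5, 21.3 and 15.4 CPM at 24 h, and at 32.4, 24.4 and 28.3 CPM at 48 h. The libraries at 24 h were below those at 48 h with no overlap, and the libraries at 0 h overlapped with both. Meg3 rose 1.66-fold from 24 h to 48 h (log2 0.72 ± 0.16, edgeR, adjusted p = 0.0116). The differences from 0 h were -0.50 ± 0.18 at 24 h (edgeR, adjusted p = 0.0895) and 0.22 ± 0.15 at 48 h (edgeR, adjusted p = 0.326) on the log2 scale, and the first was called without 0 h replicate 3 (log2 -0.58, edgeR, adjusted p = 0.0395).

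The ratio of Dlk1 to Meg3 in FPKM was 5.81, 4.95 and 9.19 at 0 h, 12.2, 9.08 and 11.97 at 24 h, and 11.9, 17.1 and 13.4 at 48 h. The libraries at 48 h lay above those at 0 h, and the libraries at 24 h overlapped with both. Rian and Mirg are other non-coding RNAs of the same cluster and strand. Rian was at a log2 difference of -0.11 from 24 h to 48 h (edgeR, adjusted p = 0.383) and Mirg, which hosts microRNAs, at 0.06 (edgeR, adjusted p = 0.893), beside the rise of Meg3. Mirg fell by 1.39 on the log2 scale from 0 h to 24 h (edgeR, adjusted p = 0.00573).

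**Figure D3:**
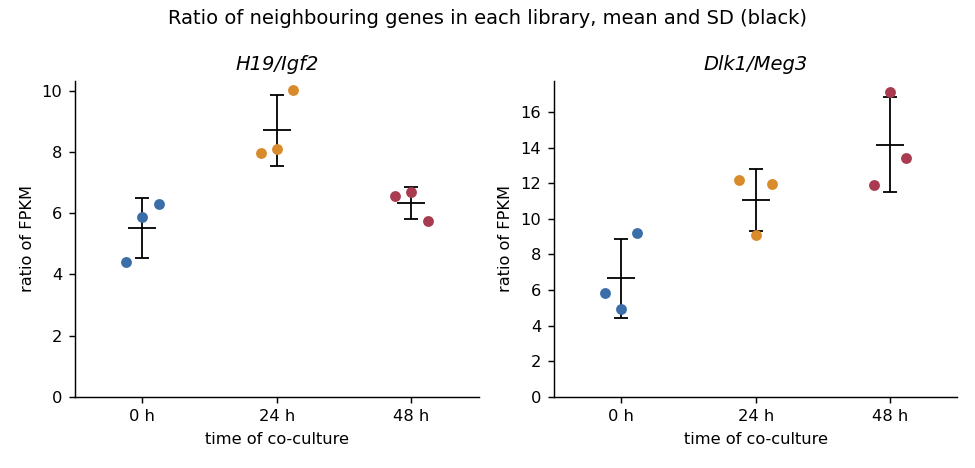
Ratio of FPKM of H19 to Igf2 (left) and of Dlk1 to Meg3 (right), on y axes from 0, in each library (points) at 0 h, 24 h and 48 h, with the mean and SD of 3 libraries in black. The mean H19 to Igf2 ratio is 5.53, 8.71 and 6.34, and the mean Dlk1 to Meg3 ratio is 6.65, 11.1 and 14.2.

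Grb10 codes for an adaptor protein that binds the insulin and insulin-like growth factor receptors and damps their signal. It is expressed from the maternal copy in most tissues. Grb10 was at 45.1, 42.4 and 41.0 CPM at 0 h, at 48.2, 57.7 and 58.4 CPM at 24 h, and at 95.2, 85.1 and 93.3 CPM at 48 h. No libraries overlapped between the groups. It rose 2.13-fold from 0 h to 48 h (log2 1.09 ± 0.11, edgeR, adjusted p = 0.000323) and 1.66-fold from 24 h to 48 h (log2 0.72 ± 0.09, edgeR, adjusted p = 0.000955). The difference between 24 h and 0 h, 0.37 ± 0.12 on the log2 scale, missed the threshold (edgeR, adjusted p = 0.0589) and was called in 5 of 14 alternative analyses.

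Mest, a paternally expressed gene for a hydrolase-like membrane protein of mesoderm and growing fat, had the largest change of the 9 genes tested. It was at 42.9, 34.8 and 33.8 CPM at 0 h, at 6.67, 8.33 and 5.37 CPM at 24 h, and at 7.32, 6.43 and 6.53 CPM at 48 h. The 24 h and 48 h libraries overlapped and all lay far below 0 h. Mest fell 5.47-fold by 24 h (log2 -2.44 ± 0.20, edgeR, adjusted p = 0.00018) and was at -2.46 ± 0.15 at 48 h (edgeR, adjusted p = 3.9e-05). Between 24 h and 48 h its log2 difference was -0.017 ± 0.18 (edgeR, adjusted p = 0.957). On the opposite strand, Copg2 shares 23.1% of the exon bases of Mest, and whether the counting used strand is not stated in the sources used here. The part of reads from Copg2 in the level of Mest was not tested.

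Peg10, a paternally expressed gene derived from a retrotransposon and needed in the placenta, was at 71.3, 58.8 and 38.7 CPM at 0 h, at 29.0, 32.7 and 23.0 CPM at 24 h, and at 32.0, 32.8 and 33.4 CPM at 48 h. The libraries of both later groups lay below all 3 libraries at 0 h and overlapped with each other. Peg10 fell by 0.98 ± 0.24 on the log2 scale by 24 h (edgeR, adjusted p = 0.023) and by 0.78 ± 0.22 by 48 h (edgeR, adjusted p = 0.0303). Either call was kept in only 2 of 6 fits that left out 1 library, with an adjusted p of up to 0.0939 at 24 h and up to 0.110 at 48 h. Sgce, whose start lies 99 bases from that of Peg10 on the opposite strand, differed by -0.27 at 24 h (edgeR, adjusted p = 0.358) and by 0.05 at 48 h (edgeR, adjusted p = 0.892) on the log2 scale.

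Snrpn, a paternally expressed gene for a spliceosome protein, was at 9.72, 8.78 and 9.21 CPM at 0 h, at 5.25, 5.29 and 5.61 CPM at 24 h, and at 7.48, 4.60 and 6.12 CPM at 48 h. The libraries of both later groups lay below those of 0 h, and the 48 h libraries spread around those of 24 h. Snrpn fell by 0.76 ± 0.15 on the log2 scale by 24 h (edgeR, adjusted p = 0.00946), a call lost without 24 h replicate 2 (edgeR, adjusted p = 0.0508), and was at -0.61 ± 0.21 at 48 h (edgeR, adjusted p = 0.0595). Snurf, which shares 10% of the exon bases of Snrpn, was listed at 0 in all libraries. The gene model Gm38393 shares 27.3% of them on the same strand and had 4 to 108 counts. Counts of Snrpn are therefore uncertain, and how far this overlap changed them was not tested.

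The zinc finger factors Peg3 and Plagl1, both paternally expressed and both involved in growth control, had the widest spread at 0 h relative to their means. Peg3 was at 58.4, 42.1 and 19.7 CPM at 0 h, at 51.7, 59.1 and 56.9 CPM at 24 h, and at 59.9, 45.5 and 57.1 CPM at 48 h. The groups overlapped, and none of the 3 comparisons passed the test, with log2 differences of 0.49 ± 0.34 at 24 h (edgeR, adjusted p = 0.353) and 0.43 ± 0.35 at 48 h (edgeR, adjusted p = 0.403) from 0 h and -0.058 ± 0.11 between the later times (edgeR, adjusted p = 0.741). The differences from 0 h moved with single 0 h libraries, to 0.87 and 0.81 without replicate 1 and 0.19 and 0.13 without replicate 3. Plagl1 was at 41.9, 25.5 and 14.6 CPM at 0 h, at 13.3, 17.5 and 13.5 CPM at 24 h, and at 16.2, 13.3 and 17.1 CPM at 48 h. Only 0 h replicate 3 lay within the range of the later libraries. Its log2 differences from 0 h were -0.87 ± 0.35 at 24 h (edgeR, adjusted p = 0.116) and -0.82 ± 0.35 at 48 h (edgeR, adjusted p = 0.122). Without 0 h replicate 3 both were called, at -1.15 (edgeR, adjusted p = 0.00729) and -1.09 (edgeR, adjusted p = 0.00838). Without 0 h replicate 1 they were at -0.42 (edgeR, adjusted p = 0.237) and -0.37 (edgeR, adjusted p = 0.256).

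The 0 h libraries stood in the same order for Peg3, Peg10, Plagl1, Mest and Grb10 as for the summed germ cell markers, which were at 2536, 1983 and 1460 CPM in replicates 1, 2 and 3. Among these markers Dazl (1350, 830 and 421 CPM), Ddx4 (461, 398 and 213) and Tdrd1 had that order, Dnd1 (112, 153 and 191) and Sall4 (205, 207 and 226) had the opposite order, and Mael was highest in replicate 3. H19 had the opposite order too, Igf2 was lowest in replicate 1 and Dlk1 was highest in replicate 3. By GC content of the longest transcript, the imprinted genes in the order of the sum lay at percentiles 31.1 to 42.5 of the genes tested. H19, Igf2 and Dlk1 lay at 81.2, 81.3 and 70.0. Meg3 (45.9) and Snrpn (26.3) had neither order. The part of GC content in these orders was not tested. The part of this difference between replicates in the results was not tested, and leaving out 0 h replicate 3 raised the number of the 9 genes called at 24 h from 4 to 7, and that of all genes from 4494 to 6023, while leaving out 24 h replicate 2 lowered them to 2 and 2607.

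Beyond the 10 genes, lists of 23 other paternally expressed and 23 other maternally expressed imprinted genes were read from the same fits. The parental label of each gene was assigned beforehand. Whether it holds in these cells, or for each transcript of the gene, was not measured. Of the paternally expressed list, 19 genes were tested at 24 h against 0 h, of which 1 rose and 7 fell, with a median log2 fold change of -0.40. At 48 h against 0 h, 1 of 18 rose and 4 fell, with a median of -0.35, and from 24 h to 48 h 1 of 19 rose and 4 fell, with a median of 0.01. Of the 20 maternally expressed genes tested, 2 rose and 4 fell at 24 h, 3 rose and 5 fell at 48 h against 0 h, and 2 rose and 4 fell from 24 h to 48 h, with medians of -0.06, -0.13 and -0.06. Over all genes tested, 25.5%, 31.6% and 21.3% were called in these comparisons, against 42.1%, 27.8% and 26.3% of the paternally expressed and 30.0%, 40.0% and 30.0% of the maternally expressed genes tested. Both lists were chosen with earlier results of these data known, so the shares are a description.

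Among the paternally expressed genes, Slc38a4, an amino acid transporter, fell by 2.06 on the log2 scale by 24 h (edgeR, adjusted p = 3.03e-05) and was at -2.73 at 48 h (edgeR, adjusted p = 1.11e-05). Rasgrf1, an exchange factor for Ras, fell to a log2 of -2.40 at 24 h and -3.16 at 48 h against 0 h. Peg13, a non-coding RNA, fell (log2 -1.43 and -1.88), Dio3, a deiodinase that inactivates thyroid hormone and lies in the Dlk1 cluster, fell by 1.60 by 24 h and was at -0.78 at 48 h (edgeR, adjusted p = 0.0946), and Nnat, a small membrane protein, fell at both times (log2 -0.98 and -1.51). Dio3 had low counts, at most 28 in any library. Magel2, from the same domain as Snrpn, was the only gene of this list that rose against 0 h, by 1.31 at 24 h and 1.71 at 48 h, while its neighbour Ndn was at 0.15 and -0.12, neither of which passed the test. From 24 h to 48 h, Usp29, which starts 147 bases from Peg3 on the opposite strand, rose by 0.86 (edgeR, adjusted p = 0.0171), and from 0 h to 24 h it fell (log2 -0.78, edgeR, adjusted p = 0.0457). Ndn, Slc38a4 and Mcts2 had the highest mean level of this list, at 17.4, 14.8 and 14.8 FPKM.

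Among the maternally expressed genes, Ascl2, a transcription factor of the H19 and Igf2 region that is known from trophoblast, rose by 1.56 on the log2 scale by 24 h (edgeR, adjusted p = 0.00015) and was higher by 1.14 at 48 h than at 0 h. From 24 h to 48 h it fell by 0.41. Zim1, a zinc finger gene beside Peg3, rose by 1.81 by 48 h (edgeR, adjusted p = 0.0304), from a low mean of 1.29 CPM at 0 h to 4.52 CPM. Asb4, near Peg10, fell (log2 -3.37 at 24 h and -3.43 at 48 h), from a mean of 5.50 CPM at 0 h to low means of 0.52 and 0.51 CPM. Gnas, whose locus makes several transcripts of different parental origin, fell too (log2 -1.78 and -1.46). Cdkn1c, an inhibitor of the cell cycle, fell by 0.93 by 48 h (edgeR, adjusted p = 0.0105). Cd81, Igf2r, the receptor that clears the Igf2 protein, and Copg2 had the highest mean level of this list, at 32.5, 27.5 and 27.2 FPKM, and Igf2r did not pass the test in any comparison (log2 -0.19, -0.08 and 0.11).

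**Figure D4:**
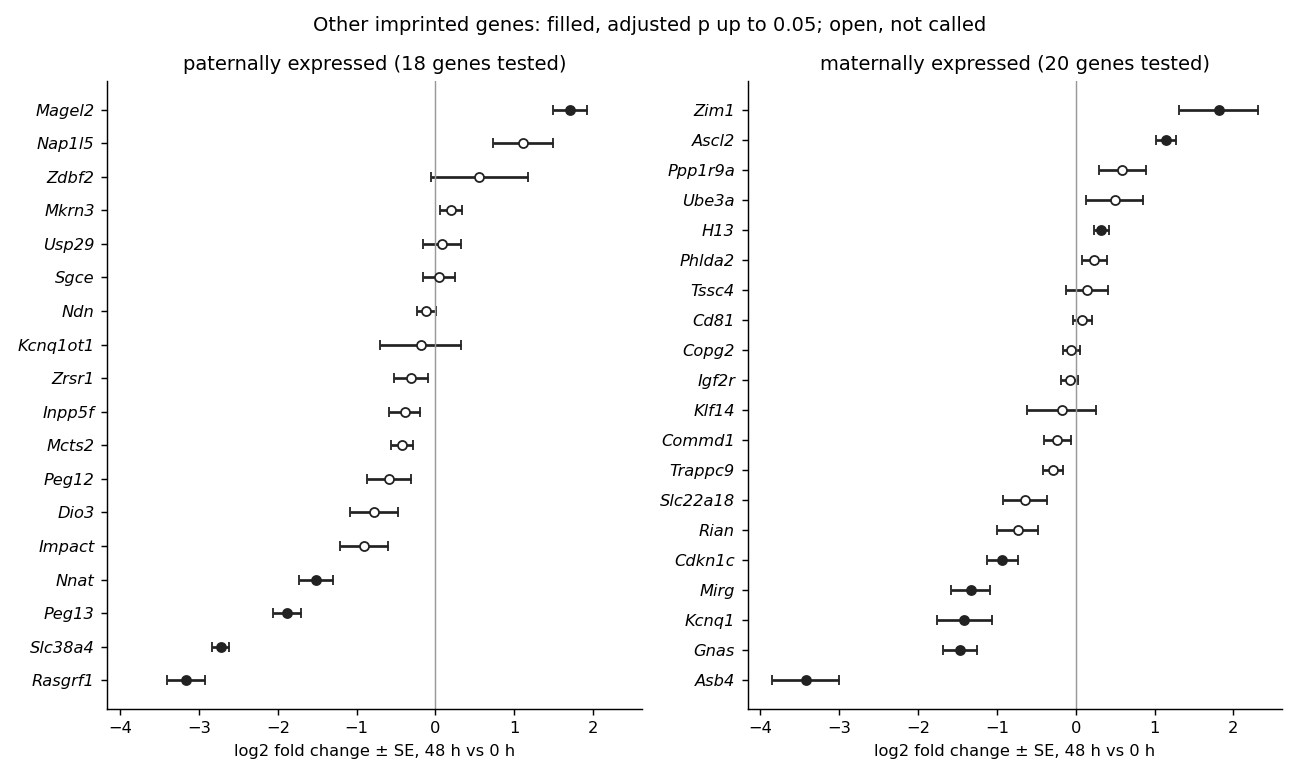
Log2 fold change with its SE from edgeR between 48 h and 0 h (x axes) of the 18 paternally expressed (left) and 20 maternally expressed (right) other imprinted genes that were tested. Filled circles were called at an adjusted p of up to 0.05, and open circles were not. Rasgrf1 at -3.16 and Asb4 at -3.43 are lowest, and Magel2 at 1.71 and Zim1 at 1.81 are highest. These 4 genes were at low means of 1.43, 0.51, 6.04 and 4.52 CPM at 48 h.

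Of 15 genes for factors that set or keep imprints, 14 were tested, of which 1 rose and 2 fell at 24 h, 1 rose and 3 fell at 48 h against 0 h, and 2 fell from 24 h to 48 h. These are 21.4%, 28.6% and 14.3% of the 14 genes tested, beside 25.5%, 31.6% and 21.3% of all genes, and no difference is read from so few genes. Zfp57, the zinc finger protein that binds TGCCGC when methylated, fell by 0.89 on the log2 scale by 24 h (edgeR, adjusted p = 0.00292) and was at -1.20 at 48 h (edgeR, adjusted p = 0.000491). Uhrf1, which brings the maintenance methyltransferase to new DNA, fell against 0 h (log2 -0.79 and -1.19) and from 24 h to 48 h (log2 -0.39). Dnmt3b, a de novo methyltransferase, rose by 0.94 by 24 h (edgeR, adjusted p = 0.000745) and fell by 0.58 from 24 h to 48 h. Zfp42 fell by 0.55 by 48 h. Trim28, the partner of Zfp57, and Dnmt1, the maintenance methyltransferase, were among the most abundant with Uhrf1, at 185, 118 and 161 FPKM, and neither Trim28 (log2 0.11 and 0.07 against 0 h) nor Dnmt1 (0.10 and -0.08) passed the test.

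Markers of other cell types moved with time. Summed markers of fibroblasts and stroma, 13 genes listed for feeder cells and testis stroma together, were at 498 to 628 CPM at 0 h, 2407 to 2766 at 24 h and 3218 to 3534 at 48 h, with 9 of 13 higher and 1 lower at 24 h, 8 of 12 higher and 1 lower at 48 h against 0 h, and 7 of 13 higher and 1 lower from 24 h to 48 h. Thy1 of this list had means of 47.7, 16.8 and 23.9 CPM at 0 h, 24 h and 48 h. The cells that each marker came from were not determined. Col1a1, the most abundant of them, went from a mean of 157 CPM at 0 h to 1111 and 1402 CPM. Peritubular myoid markers were at 13.7 to 15.6, 146 to 207 and 263 to 321 CPM, Sertoli markers at 24.5 to 25.9, 74.6 to 128 and 112 to 128 CPM, and Leydig markers at 4.48 to 6.79, 24.6 to 38.5 and 25.2 to 32.5 CPM. Endothelial markers were at 43.3 to 47.2, 14.4 to 18.9 and 12.3 to 12.8 CPM, and macrophage markers at 15.98 to 17.95, 7.21 to 12.3 and 8.48 to 10.1 CPM. Against 0 h, 5 of 6 myoid markers were called higher at 24 h and at 48 h, and 2 and then 3 of 3 Leydig markers tested. Of 8 Sertoli markers tested 6 were higher at either time, while 2 were lower at 24 h and 1 at 48 h. Of 4 endothelial markers tested 2 were lower and 1 higher at either time, and of 4 macrophage markers tested 1 was lower at either time, beside 2 higher ones at 24 h and 1 at 48 h. Of the 6 germ cell markers 1 was higher at 24 h and 1 lower at 48 h. At 3 counts or fewer in each 0 h library were Fshr of the Sertoli markers, Hsd3b1, Insl3 and Lhcgr of the Leydig markers, Actg2, Emcn, Adgre1 and C1qa, and Fshr, Lhcgr and C1qa were so in all groups.

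The stromal sum was 4.49-fold higher at 24 h than at 0 h and 1.30-fold higher at 48 h than at 24 h. In the same steps, Dlk1 was 1.18-fold and 2.14-fold higher and Grb10 1.28-fold and 1.66-fold higher. The largest parts of the stromal sum at 24 h were Col1a1, Col1a2 and Col3a1 (means of 1111, 696 and 354 CPM). Single markers differed from the sum. From 24 h to 48 h, mean Postn went from 43.9 to 127 CPM and mean Pdgfra from 44.6 to 36.2 CPM. In this step 7 of 13 stromal markers were called higher and 1 lower. The myoid sum was 1.72-fold higher at 48 h than at 24 h. The means of H19, Igf2 and Mest were lower at 24 h and 48 h than at 0 h. The stromal, myoid, Sertoli and Leydig sums were higher at those times, and the endothelial and macrophage sums were lower. The lower sums rested on few markers: Kdr and Pecam1 (means of 24.6 and 15.7 CPM at 0 h, 4.73 and 2.65 at 24 h) and Cd68 (15.7 and 5.78 CPM). Means of Tek (1.42, 3.49 and 4.10 CPM) and Cd14 (0.61, 1.63 and 1.68 CPM) were higher at both later times. The part of other cell types in the levels of the 10 genes was not tested. In bulk libraries such as these, fewer cells of a type and less RNA per cell cannot be told apart.

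**Figure D5:**
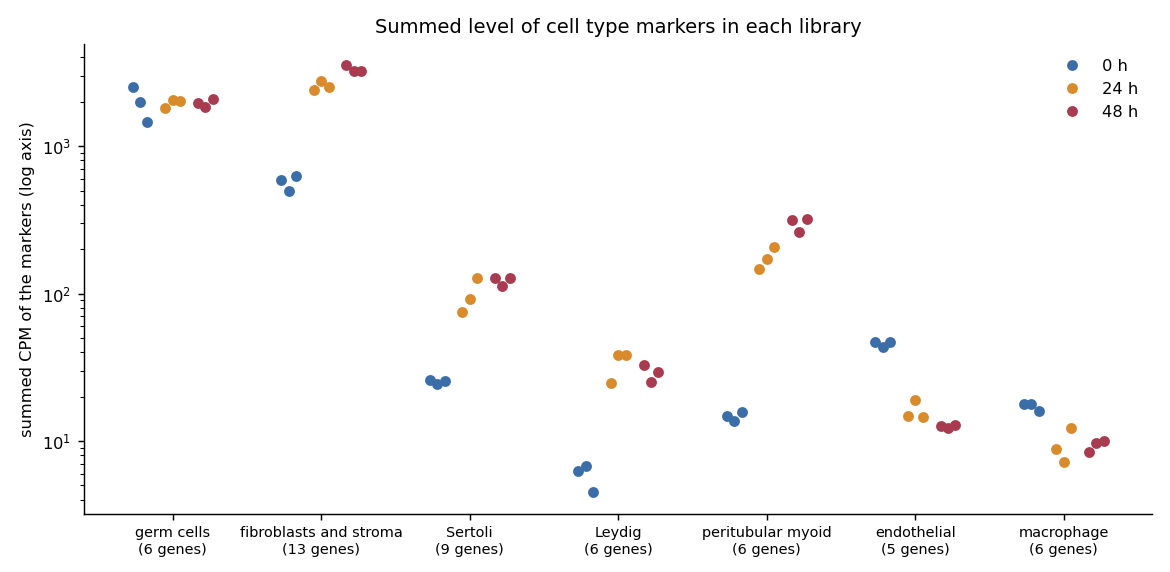
Summed CPM of the markers of 7 cell types (x axis) on a log y axis in each library (points) at 0 h, 24 h and 48 h. Germ cell sums lie between 1460 and 2536 CPM in all 9 libraries, and fibroblast and stroma sums go from 498 to 628 CPM at 0 h to 3218 to 3534 CPM at 48 h.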

How the data were processed

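The 9 libraries were sorted or cultured EGFP-SSCs at 0 h, 24 h and 48 h, 3 per group. The authors deposited raw counts of reads per Ensembl gene, whole numbers without normalization. Per the labels, fastp, HISAT2, featureCounts and GRCm38 were used, with versions, annotation release and strand setting not given in the sources used here. Symbols, positions and exon lengths came from GENCODE M21 (GRCm38), which held 45229 of 46078 identifiers, and the other 849 took at most 0.121% of the counts of a library. Totals ran from 16825251 to 22201892 counts, and intervals from them would cover counting error only.

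Each comparison used the 6 libraries of its groups, filterByExpr, TMM and edgeR 4.0.16 (R 4.3.3), whose quasi-likelihood test is two-sided, and p-values were adjusted over all genes tested after Benjamini and Hochberg. CPM used TMM factors over 9 libraries, log2 CPM a prior count of 2, and FPKM the union of exons. Alternatives were DESeq2 1.42.0, its size factors or library size alone in edgeR, no expression filter, a minimum of 10 counts per library, 1 fit over the 9 libraries, a replicate block and leaving out each library. Offsets for GC content and length (splines with 5 and 4 degrees of freedom) were added after seeing the data. In simulated counts of 24 h against 0 h (17295 genes), 70 of 100 genes changed 2-fold and 100 of 100 changed 4-fold were recovered, with 5 false calls. The simulation gave every gene the same biological coefficient of variation, 0.22, and changed only genes with higher counts. It does not carry the uneven spread of the 0 h replicates, so the test may do less well in the data.

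The 10 genes, the other lists and the markers were chosen with earlier results of these data known. Named beside the 10 genes are, per list and comparison, up to 4 of the largest called rises and 4 of the largest called falls and the 3 highest in FPKM, neighbours of the 10 genes (Sgce, Usp29, Rian, Mirg, Copg2 and Ndn), the 5 genes most like H19, and the most abundant marker where given. Not all called changes within this rule are described above. Kcnq1, with at most 35 counts in any library, fell (log2 -1.34 at 24 h and -1.41 at 48 h against 0 h) and H13 rose (0.42 and 0.33). From 24 h to 48 h, Ube3a rose (0.61), and Zrsr1 (-0.32), Trappc9 (-0.29) and Ndn (-0.26) fell. Promoters came from RefSeq (GRCm38.p6). Figures used matplotlib 3.10.9 in Python 3.11.15.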

Additional observations from a re-analysis of the deposited data

How the results depend on the processing

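The calls of Igf2 and Mest against 0 h, of Dlk1 and Grb10 at 48 h against 0 h, and of Igf2, Dlk1, Meg3 and Grb10 from 24 h to 48 h were kept in all 14 alternatives. Leaving out 1 library gave 2607 to 6023 called genes of all genes at 24 h, 3471 to 7116 at 48 h and 1857 to 4356 between them, against 4494, 5602 and 3732. Of the 9 imprinted genes tested it gave 2 to 7, 4 to 6 and 4 calls. With offsets for GC content and length, added after seeing the data, 7 of the 9 were called at 24 h and 6341 of all genes, and H19 was at -0.87 from 24 h to 48 h. With all 9 libraries in 1 fit, 1043 of all genes were called between 24 h and 48 h, of which 27.3% were higher against 40.4%. With library size alone, the median of all genes moved by 0.11 (log2) at 24 h and at 48 h against 0 h, and 57.1% and 52.8% of called genes were higher, against 44.5% and 41.2%, with no change of direction among the 10 genes. From 24 h to 48 h, uncalled differences turned in sign: leaving out 1 library, Peg3 ranged from -0.12 to 0.054, Mest from -0.14 to 0.15 and Plagl1 from -0.016 to 0.20, and Mest was at 0.0072 with a minimum of 10 counts per library. With the length of the longest transcript, levels at 0 h were 20.9 FPKM for Igf2, 10.5 for Dlk1, 1.67 for Meg3, 4.61 for Peg3, 13.9 for Mest and 8.47 for Grb10. The cause of these changes was not tested.

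Replicate numbers did not pair the libraries, with correlations of deviations between -0.28 and 0.20 for the same number. With the replicate number as a block, 3007, 4013 and 2497 of all genes and 4, 4 and 4 of the 9 genes were called. The call of Peg10 at 48 h was lost under the block (log2 -0.74, edgeR, adjusted p = 0.0598) and with library size alone (log2 -0.67, edgeR, adjusted p = 0.0517), and no other call of the 9 genes changed under the block.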
